A study of Saccharomyces cerevisiae with 40 samples.

Results

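Genes for the uptake of nitrogen compounds and for the use of proline were followed in *Saccharomyces cerevisiae* during wine fermentation. The members were 10 genes under nitrogen catabolite repression, chosen by name: the ammonium permease genes *MEP1*, *MEP2* and *MEP3*, the amino acid permease genes *GAP1*, *AGP1*, *CAN1* and *PUT4*, the urea permease gene *DUR3*, and the proline use genes *PUT1* and *PUT2*. Of these, 7 had a row among the 4388 oligonucleotides of the expression table, namely *MEP2* (YNL142W), *GAP1* (YKR039W), *AGP1* (YCL025C), *CAN1* (YEL063C), *DUR3* (YHL016C), *PUT1* (YLR142W) and *PUT2* (YHR037W). *MEP1*, *MEP3* and *PUT4* were not analysed here. Expression was measured on 5 independent cultures of the laboratory strain S288C, 5 of 59A, a haploid strain derived from the industrial wine yeast EC1118, and 1 culture of each of 30 haploid segregants of their cross, which came from 21 asci. All cultures grew at 28 °C on a synthetic medium that imitates grape must, and RNA was taken at 50% of the fermentation, at a release of 45 g of CO2. Each segregant is a genotype of its own with 1 array, so that the spread between segregants holds genotype and culture together. The measure is the log2 ratio of a culture over a pool of the RNA of the 30 segregants. Nominally, 0 is the level of the pool. Among the members, however, the mean over the 30 segregants themselves ran from -0.50 in *PUT1* to 0.35 in *MEP2*. A value of 0 thus marks the pool only roughly, for a reason that was not tested, and levels are best compared between arrays.

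Yeast takes up ammonium and most amino acids through membrane permeases and, while preferred nitrogen sources last, keeps the genes for poorer sources at a low level, a control called nitrogen catabolite repression. The GATA factors Gln3 and Gat1 activate these genes once the preferred sources run down, and Ure2 holds Gln3 back. Proline, abundant in grape must, is oxidised in the mitochondrion by the products of *PUT1* and *PUT2* and is hardly used by yeast in wine fermentation because the first step needs oxygen.

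Arrays of the same parent correlated with r from 0.82 to 0.93 for S288C and from 0.85 to 0.96 for 59A, and arrays of different parents with r from 0.39 to 0.59. Pairs of segregants ranged from r = -0.44 to 0.86. That a ratio runs as sample over pool is likely, from the dyes and the design, but the table does not state it. *ASP3*, a cluster of near-identical asparaginase genes, is deleted in 59A by the study's account, and its 4 probes read 1.03 to 1.14 higher in S288C on the log2 scale. With the opposite direction, the signs of all levels, differences and relations to traits would turn and their sizes would stay. The arrays measured the share of a transcript in the RNA of a culture, so that fewer cells with the transcript and less of it per cell cannot be told apart.

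The parents differed in 6 of the 7 members, and all 6 were higher in the wine yeast derivative 59A. The set comprised the ammonium permease gene *MEP2*, the permease genes *CAN1*, *AGP1*, *GAP1* and *DUR3*, and the proline oxidase gene *PUT1*, with differences from 0.27 to 0.82 on the log2 scale. *PUT2*, which encodes the dehydrogenase of the next step of proline use, did not pass the test. Over all 4388 genes 30.8% were called (limma, Benjamini-Hochberg adjusted p under 0.01), 17.1% as higher in 59A and 13.7% as higher in S288C. In each of the 6 members every 59A culture lay above every S288C culture, as in 18.5% of all genes. For each of them the exact permutation test over the 10 arrays, two-sided, gave p = 0.00794, the smallest value that 5 against 5 can give. The median difference, S288C minus 59A, was -0.48 over the 7 members and -0.01 over all genes.

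*MEP2* encodes the ammonium permease of highest affinity, which also acts as a sensor in filamentous growth. Its log2 ratios in the S288C cultures 1 to 5 were -0.08, -0.26, -0.24, -0.31 and -0.19. In the 59A cultures they were 0.23, 0.63, 0.53, 0.74 and 0.88. All 59A cultures read above 0 and all S288C cultures below it. The mean was -0.22 ± 0.09 for S288C and 0.60 ± 0.25 for 59A (SD over 5 cultures, n = 5), which is 1.76-fold more in 59A. The difference of -0.82 ± 0.10 (SE) had an adjusted p of 3.22e-05 in limma and was the widest among the members.

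*CAN1* encodes the arginine permease. Its S288C cultures read 0.13, -0.17, 0.08, -0.18 and -0.04, and its 59A cultures 0.67, 0.73, 0.67, 0.59 and 0.67. The 59A cultures formed a tight group well above all S288C cultures, which read around 0. The difference was -0.70 ± 0.07 (SE, limma adjusted p = 2.92e-06), 1.62-fold in favour of 59A, and it had the lowest adjusted p of the 7 members.

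*AGP1* encodes a permease of broad specificity for amino acids, whose gene also answers to amino acids outside the cell through the SPS sensor. It was far below the pool in both parents, with -1.55, -1.32, -1.48, -1.18 and -1.43 in S288C and -0.97, -1.01, -0.91, -0.79 and -0.87 in 59A. The lowest 59A culture was still above the highest S288C culture. The difference was -0.48 ± 0.07 (SE, limma adjusted p = 0.00016), 1.40-fold more in 59A. *GAP1*, the general amino acid permease gene, ran from -0.43 to -0.16 in S288C and from -0.03 to 0.25 in 59A without overlap, a difference of -0.42 ± 0.07 (SE, limma adjusted p = 0.000461). *DUR3*, which encodes a permease for urea and polyamines, ran from -0.36 to -0.19 in S288C and from -0.14 to 0.16 in 59A. It had the smallest difference among the members called, -0.27 ± 0.06 (SE, limma adjusted p = 0.00348). This call was lost without the fifth S288C culture (adjusted p = 0.011), without the first 59A culture (adjusted p = 0.011) and under the Benjamini-Yekutieli adjustment (adjusted p = 0.0312).

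*PUT1* encodes proline oxidase, the enzyme of the first step of proline use. The 5 S288C cultures gave -0.57, -0.74, -0.74, -1.08 and -0.97, and the 59A cultures -0.32, -0.35, -0.16, 0.08 and -0.36. All but 1 of the 10 parental cultures read below 0, and the strains did not overlap. The difference of -0.60 ± 0.11 (SE, limma adjusted p = 0.000631) is 1.51-fold. *PUT2* ran from -0.48 to -0.20 in S288C and from -0.38 to -0.13 in 59A, so that the strains overlapped. Its difference was -0.07 with a 95% confidence interval from -0.21 to 0.07 (limma adjusted p = 0.419, exact permutation p = 0.317, n = 5 each), which leaves room for a modest difference either way. The S288C cultures also differed among themselves. Culture 1 was the highest of its strain in 6 of the 7 members and the lowest in *AGP1*. Without it the same number of members, 6, was called.

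**Figure D1:**
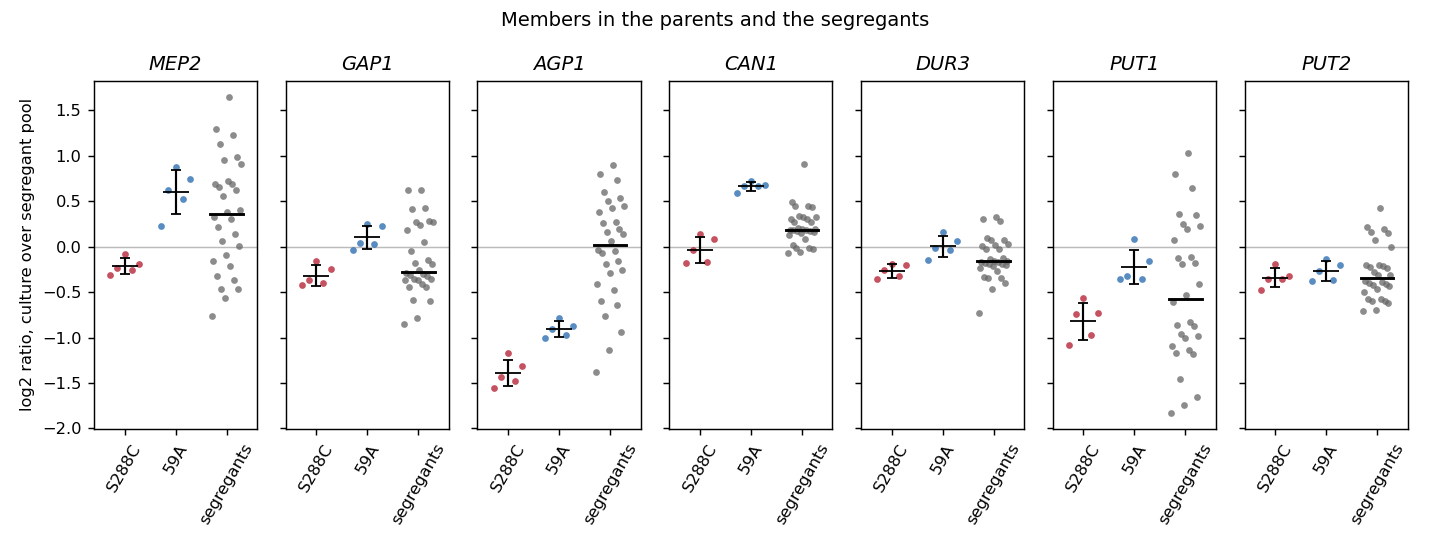
Log2 ratio over the segregant pool (y axis) for the 7 members in 5 S288C cultures, 5 59A cultures and 30 segregants (points). Bars on the parents are mean and SD, the line on the segregants is their median. In *AGP1* most segregants lie above both parents, whereas in *CAN1* 29 of 30 lie within the parental range but below all 59A cultures.

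Segregants lay outside the parental range less often in the members than over all genes. That range spans both parents and so widens with their difference, which was called in 6 of the 7 members and 30.8% of all genes. The lower share thus does not show that the members varied less. Of 210 values, 7 members in 30 segregants, 91 or 43.3% were outside the range of the 10 parental cultures, beside 55.5% of the values of all genes. The median gene had 17 segregants outside, and 6 of the 7 members had fewer, all but *AGP1* with 27. *MEP2* had 7 segregants above and 6 below that range, *PUT1* 8 and 8, *PUT2* 7 and 8, *GAP1* 7 and 6, and *DUR3* 3 and 3. The SD over segregants was 3.35 times the pooled SD of the parental cultures for *MEP2*, 3.94 times for *PUT1*, 3.24 times for *GAP1*, 2.85 times for *PUT2* and 2.39 times for *DUR3*, beside a median of 2.69 over all genes.

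*PUT1* had the widest spread. It ran from -1.83 in segregant 25a over a median of -0.57 to 1.02 in segregant 4c. *MEP2* ran from -0.76 in segregant 25a over a median of 0.35 to 1.65 in segregant 9a. Segregant 25a was thus the lowest of the 30 in both genes. *GAP1* reached from -0.85 (segregant 16d) to 0.62 (segregant 6b) with a median of -0.27, *DUR3* from -0.73 (segregant 16a) to 0.33 (segregant 1b) with a median of -0.16, and *PUT2* from -0.71 (segregant 14b) to 0.42 (segregant 18b) with a median of -0.34.

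*AGP1* and *CAN1* stood at opposite ends. In *AGP1* 27 of the 30 segregants were above all 10 parental cultures and none was below them. As many segregants above the parents, or more, were found in 4.31% of all genes. *AGP1* had its lowest value, -1.38, in segregant 14a, its median at 0.01 and its highest value, 0.90, in segregant 4c. The median lay 0.92 above the mean of the higher parent, a gap reached by 1.28% of genes. The 3 segregants within the parental range were 14a, 3a (-1.14) and 20b (-0.94). Its SD over segregants was 4.79 times that of parental cultures, a ratio at least as high in 12.2% of genes. *CAN1*, in contrast, had 29 segregants within the parental range, and only segregant 5a, at 0.91, was above it. That range includes the gap between the strains, and none of the 29 reached the level of 59A. The highest of them, 18b, read 0.49, and the lowest 59A culture 0.59. The SD of *CAN1* over segregants, 1.89 times that of parental cultures, was the smallest ratio among the members. These counts describe the arrays and were not tested, since parents and segregants have unequal numbers of cultures.

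The complete tetrad of ascus 16 shows how far sister spores differed. *MEP2* read 0.38, 0.06, 1.29 and -0.46 in spores 16a to 16d, and *PUT1* -0.12, -0.11, 0.35 and -1.13. In both genes spore 16c was the highest and 16d the lowest of the tetrad. *AGP1* read -0.60, 0.73, 0.26 and 0.54, so that there spore 16a was the lowest.

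The relation to nitrogen use and fermentation rate was examined over the 30 segregants. Assimilated nitrogen (Nass) ran from 238 to 343 mg per l with a median of 326, and the parents stood at 234 (S288C) and 343 (59A), the value the labels give to each parent. The maximum rate of CO2 release (Rmax) ran from 1.22 to 2.96 g per l and h, the rate at mid-fermentation (R50) from 0.87 to 2.68, and the later rate R70 from 0.67 to 2.08. These traits go together: Nass and Rmax had rho = 0.89, and Nass and R70 rho = 0.55 (n = 30). A gene was called when Spearman's rho exceeded 0.6 in size with an adjusted p under 0.05 over all 4388 genes. In all, 70 relations between the 7 members and 10 traits were computed, and 7 were called. All 7 belonged to *MEP2* and *PUT1*. The authors of the study had already listed both genes for the same traits, from the same arrays and with the same thresholds. The calls given here thus repeat a published result and lend it no independent support.

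*MEP2* was the member most closely tied to the maximum rate. Its rho with Rmax was 0.75 (95% interval 0.49 to 0.88, adjusted p = 0.00207, permutation p = 1e-05, the smallest that the permutations can give), and Pearson's r was 0.69 (permutation p = 4e-05). In size such a rho was reached by 0.0684% of all genes, *MEP2* itself included. Without the 2 segregants of most extreme Rmax, 29c and 1b, r was 0.70. *PUT1* was also called for Rmax, with rho = 0.68 (adjusted p = 0.00958, permutation p = 8e-05), r = 0.67 (permutation p = 0.00012) and r = 0.69 without the same 2 segregants. Positive calls for Rmax amounted to 0.342% of all genes, 15 in number, among which were these 2 of the 7 members. Both kept their call whichever single segregant was left out. With only 1 spore of each ascus, 21 segregants, rho was 0.69 for *MEP2* (adjusted p = 0.0564) and 0.46 for *PUT1* (adjusted p = 0.234), and neither was called. On the log2 scale *MEP2* rose by 0.42 ± 0.08 and *PUT1* by 0.52 ± 0.10 per SD of Rmax (SE, limma slope). The SD of Rmax was 0.50 g per l and h.

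Individual strains, picked as examples, show the size of the relation and its scatter. Segregant 16c combined an Rmax of 2.94 with a *MEP2* ratio of 1.29, and segregant 14b an Rmax of 2.79 with 1.13. Segregant 25a, with an Rmax of 1.53, had -0.76, and segregant 22c, with an Rmax of 1.47, had -0.47. Others departed from this order. Segregant 22d, also at an Rmax of 2.94, had only 0.22, below the segregant median of 0.35. Segregant 1b, with the highest Rmax, 2.96, had 0.55, and segregant 29c, with the lowest, 1.22, had -0.15. Segregant 9a departed too. It had the highest *MEP2* ratio of all, 1.65, at an Rmax of only 1.98 and a Nass of 260.

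For Nass the same genes were called. *PUT1* had rho = 0.67 (95% interval 0.37 to 0.84, adjusted p = 0.0143, permutation p = 9e-05) and r = 0.63 (permutation p = 0.00029). *MEP2* had rho = 0.64 (95% interval 0.33 to 0.83, adjusted p = 0.0204, permutation p = 0.00026) and r = 0.57 (permutation p = 0.0012). Positive calls for Nass again made up 0.342% of all genes. Without the 2 segregants of lowest Nass, 14a and 25a, rho was 0.64 for *PUT1* (adjusted p = 0.0625, r = 0.58) and 0.58 for *MEP2* (adjusted p = 0.0955, r = 0.48), and neither was called, although rho of *PUT1* was still over 0.6. With 1 spore of each ascus both calls were lost too, at rho = 0.55 for *PUT1* (adjusted p = 0.115) and 0.64 for *MEP2* (adjusted p = 0.0502). Without segregant 14a alone *MEP2* missed the threshold (adjusted p = 0.0504). The other members had rho with Nass from 0.13 (*DUR3*) to 0.38 (*AGP1*).

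Nass was crowded at its upper end, where *PUT1* still varied widely. At a Nass of 341 segregant 24a had a *PUT1* ratio of -1.10, and at 342 segregant 4c had 1.02. The lowest *PUT1* ratios, -1.83, -1.74 and -1.65, were those of segregants 25a, 22c and 18c, with a Nass of 241, 258 and 309.

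**Figure D2:**
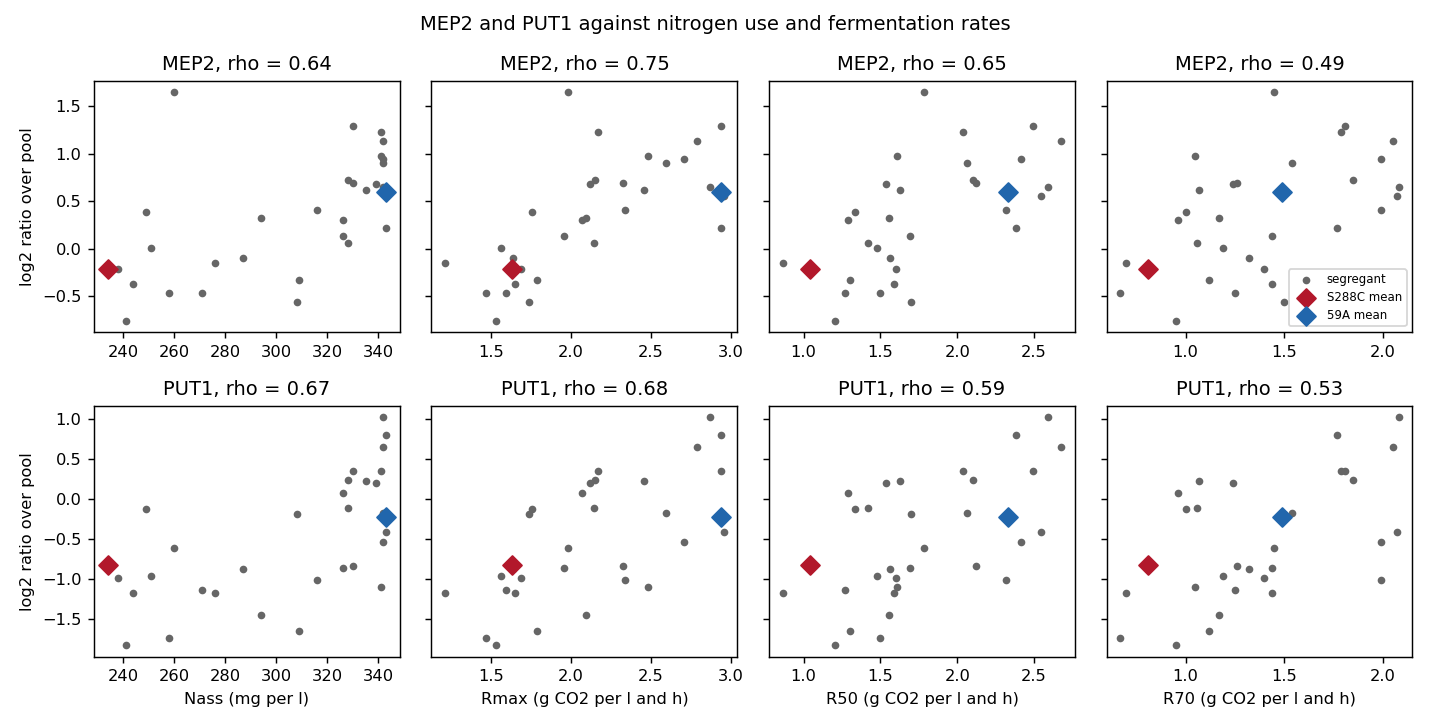
Log2 ratio of *MEP2* (upper row) and *PUT1* (lower row) against Nass, Rmax, R50 and R70 in the 30 segregants (points), with the mean of each parent as a diamond at its trait value from the labels. The points rise from left to right most closely for *MEP2* and Rmax (rho = 0.75), and R70 has a rho of 0.49 and 0.53.

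Fewer relations were called for the later rates. For R50 *MEP2* was called with rho = 0.65 (adjusted p = 0.0132, permutation p = 9e-05, r = 0.61, permutation p = 0.00044, and r = 0.58 without segregants 14b and 4c), where positive calls were 0.661% of all genes. With 1 spore of each ascus its rho was 0.53 (adjusted p = 0.23), and it was not called. *PUT1* had rho = 0.59 and an adjusted p of 0.0369 for R50, below the threshold on rho. It was called in 8 of the 30 fits that left out 1 segregant, those without 1b, 10b, 16a, 16b, 18b, 22a, 23b or 28b. For R70 no member was called, at a background of 2.32% of genes in either direction. *PUT1* had rho = 0.53 (adjusted p = 0.0532) and *MEP2* 0.49 (adjusted p = 0.0849), and 4 of the 7 members had an unadjusted p under 0.05, as had 818 of the 4388 genes. Whether the relation to R70 is weaker than that to Rmax was not tested.

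As a group, the members leaned to the positive side. All 7 had a positive rho with Nass, Rmax and R50, and 6 with R70, the exception being *GAP1* at -0.05. The median rho over the members was 0.35 for Nass, 0.33 for Rmax, 0.33 for R50 and 0.37 for R70, beside medians of -0.01, -0.03, -0.03 and -0.01 over all genes. *CAN1* reached its highest rho of these with R50 (0.45, adjusted p = 0.173) and *DUR3* with R70 (0.37, adjusted p = 0.248). *PUT2* stayed between 0.10 and 0.16. The members were chosen with earlier results of these data known, and the traits go together, so that the medians are not independent of each other. The lean of the group was not tested.

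The duration of fermentation (Fd), from 61.3 to 149 h, gave the mirror image. *PUT1* had rho = -0.68 (adjusted p = 0.00741, permutation p = 7e-05, r = -0.67, permutation p = 3e-05) and *MEP2* rho = -0.66 (adjusted p = 0.0128, permutation p = 0.00017, r = -0.62, permutation p = 0.00025). Without the 2 longest fermentations, 22c and 29c, r was -0.67 and -0.62. With 1 spore of each ascus rho was -0.49 for *PUT1* (adjusted p = 0.265) and -0.57 for *MEP2* (adjusted p = 0.148), and both calls were lost. Negative calls for Fd were 0.798% of all genes. Of the 7 calls, only that of *MEP2* for Rmax held under the stricter Benjamini-Yekutieli adjustment (adjusted p = 0.0186). No member was called for the final cell population (Cp, 29 segregants), succinic acid, glycerol, acetic acid or pyruvic acid, and for all of these but pyruvic acid (3.17% of genes) no gene at all, 0 of 4388, was called. *MEP2* had rho = -0.62 with acetic acid, but an adjusted p of 0.155. *GAP1* had rho = 0.48 with Cp (adjusted p = 0.293) and r = 0.58 (permutation p = 0.00085), which was 0.38 without the 2 segregants of most extreme Cp.

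**Figure D3:**
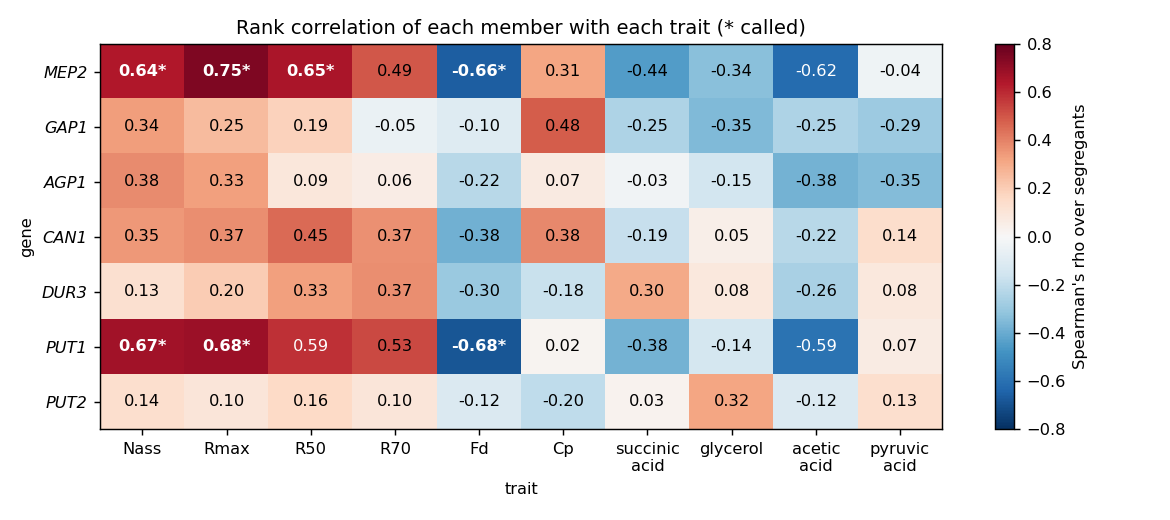
Spearman's rho over the segregants between the log2 ratio of each member (rows) and each of 10 traits (columns), printed in each cell. Bold with an asterisk marks the 7 called relations, all in the rows of *MEP2* and *PUT1*.

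Because Nass and the late rate go together, each member was also fitted on Nass and R70 jointly, with slopes per SD of a trait (37.8 mg per l for Nass). *AGP1*, which was not called for Nass by rho, had the steepest slope on Nass, 0.41 ± 0.10 on the log2 scale (SE, 95% interval 0.21 to 0.60, limma adjusted p = 0.0118). *PUT1* followed with 0.36 ± 0.12 (95% interval 0.12 to 0.61, adjusted p = 0.0415). *MEP2* had a slope of 0.26 with an interval from 0.05 to 0.47 and an adjusted p of 0.0917, and was not called. Positive slopes on Nass were called for 4.72% of all genes. *AGP1* had r = 0.57 with Nass (permutation p = 0.00094, and 0.53 without 14a and 25a) against rho = 0.38. Segregant 14a, lowest in Nass and in *AGP1*, weighed on that slope, and without it the adjusted p was 0.0793. The *AGP1* call was also lost with Rmax in place of R70 (slope 0.47, adjusted p = 0.205) and with the traits as normal scores (slope 0.31, adjusted p = 0.0599). *PUT1* was lost with Rmax (adjusted p = 0.558) and with 1 spore of each ascus (adjusted p = 0.129). The call for *PUT1* was lost in 11 of the 30 fits that left out 1 segregant (3a, 10b, 14a, 16b, 17a, 19b, 20b, 22d, 23b, 25a or 28b), with an adjusted p of at most 0.107. Without segregant 9a *MEP2* was called too, with an adjusted p of 0.00896.

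With Nass held, no member was called for R70, where positive slopes made up 4.08% of all genes. *PUT1* had a slope of 0.25 (95% interval 0.00369 to 0.49, adjusted p = 0.196), *MEP2* 0.17 (interval -0.04 to 0.38, adjusted p = 0.302) and *DUR3* 0.10 (interval 0.01 to 0.20, adjusted p = 0.173). *AGP1* had a slope of -0.14 with an interval from -0.34 to 0.05. For *PUT1* and *MEP2* the intervals do not exclude slopes on R70 as steep as those on Nass.

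**Figure D4:**
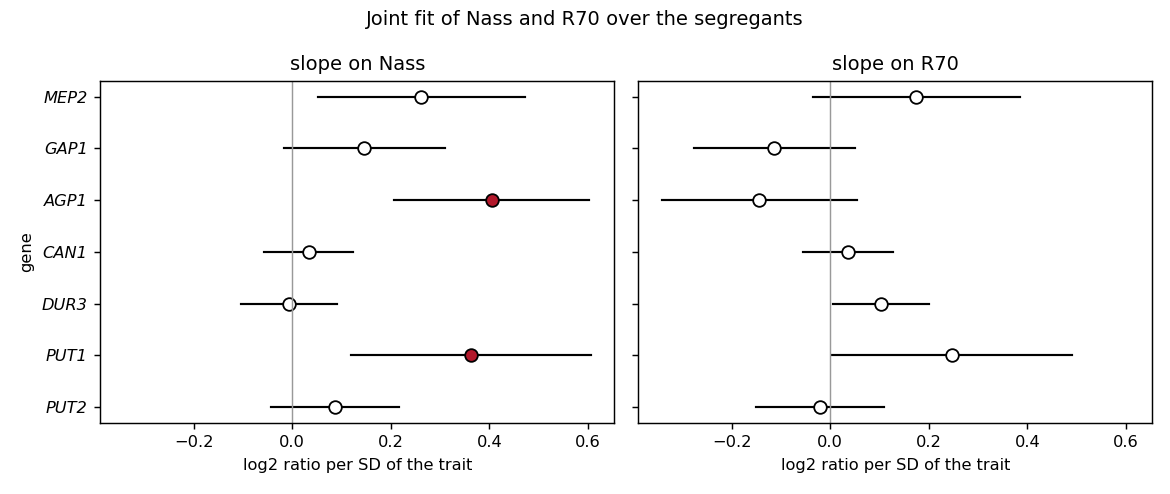
Slope of the log2 ratio per SD of Nass (left) and of R70 (right) for each member in 1 joint fit over 30 segregants. Points are estimates, bars 95% confidence intervals, and filled points had an adjusted p under 0.05. Only *AGP1* and *PUT1* are filled, on Nass.

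The members did not move as a block among the segregants. Over the 21 pairs of members the median rho was 0.14, and 16 pairs were above 0. *MEP2* and *PUT1* were the closest pair (rho = 0.60), followed by *PUT2* and *AGP1* (0.43), *GAP1* and *CAN1* (0.41) and *MEP2* and *CAN1* (0.39). *GAP1* and *AGP1* ran furthest apart (-0.24), and *PUT1* and *PUT2*, which encode consecutive steps of 1 pathway, had rho = 0.17. All these points share the reference pool and the normalization (n = 30), and they are given as a description.

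The genes whose profile over the segregants was most like that of a member were sought among rows without a missing value. For *MEP2* these were *MAE1*, the mitochondrial malic enzyme gene (rho = 0.87), and *SNG1*, a gene of resistance to nitrosoguanidine (0.72). Both were also higher in 59A, by 0.44 and 0.79 on the log2 scale (limma adjusted p = 0.000594 and 9.9e-07). Their rho with Rmax was 0.69 and 0.68, which the study had already listed. For *PUT1* the nearest genes were *CBR1*, a cytochrome b reductase gene (0.65), and YLR410W-B, a retrotransposon gene with near-identical copies (0.65). YLR410W-B was higher in S288C by 0.89.

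*AGP1* had much closer companions. *NPP1*, a nucleotide pyrophosphatase gene, had rho = 0.93 with it and *ATG42*, a vacuolar carboxypeptidase gene, 0.91, and 6.83% of all genes exceeded 0.6. *NPP1* was low in both parents as well, at -1.62 in S288C and -1.12 in 59A, with a segregant median of -0.22. *ATG42* was not, at -0.12 and -0.21. *AGP1* had rho = 0.74 in size with the second principal component of the segregants, which holds 16.4% of the variance. *PUT2* was nearest to *YPK1*, a protein kinase gene (0.83), and *ZPR1*, a zinc finger protein gene (0.81), and to the first component (0.64, 31.0% of the variance).

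For *GAP1* the nearest genes were *TFB4*, of the transcription factor TFIIH (0.73), and *CHS7*, of chitin synthase export (0.71). For *CAN1* they were *GSP1*, a Ran GTPase gene (0.69), and *TRX1*, a thioredoxin gene (0.69), and both were higher in 59A, by 0.68 and 0.79. *DUR3* stood most alone, with *PCL8*, a cyclin gene of the Pho85 kinase (0.61), as the only gene above 0.6 and YJL119C next (0.58).

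Other genes of nitrogen use were counted in lists. Over all genes 30.8% were called between the parents, 17.1% as higher in 59A and 13.7% as higher in S288C. Of 12 further amino acid permease genes measured, 3 were higher in 59A and 9 were not called. *BAP3*, a permease gene for branched-chain amino acids, led with a difference of -0.61 ± 0.08 (SE, limma adjusted p = 3.15e-05). Their median rho with Rmax was -0.11, and none was called for Nass or a rate.

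A list of other genes of nitrogen metabolism and transport, taken as under the same repression, held 11 measured genes. Of these, 2 were higher in 59A, 1 was higher in S288C and 8 were not called. The glutamate dehydrogenase gene *GDH2*, of the enzyme that frees ammonium from glutamate, differed by -0.72 ± 0.06 and the glutamate synthase gene *GLT1* by -0.71 ± 0.06 (SE, limma adjusted p = 6.88e-07 and 1.1e-06). The allantoin pathway gene *DAL7*, of malate synthase, was not called between the parents but was called for R70 (rho = 0.61, adjusted p = 0.0153), as were 1.14% of all genes on the positive side. Among 11 regulators only *URE2*, the gene of the repressor of Gln3, was called between the parents, as higher in 59A (-0.60 ± 0.05, SE, limma adjusted p = 6.76e-07). *DAL81*, an activator gene of the allantoin and GABA pathways, was called as negative for Rmax (rho = -0.63, adjusted p = 0.0199), as were 1.09% of all genes. The study had already listed these calls of *DAL7* and *DAL81*, from the same arrays and with the same thresholds.

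The 2 measured genes of the SPS sensor were not called in any of these comparisons, the wider difference being that of *STP1*, a transcription factor gene (0.13, limma adjusted p = 0.213). Of 2 proline synthesis genes, *PRO3*, of the last step, was higher in 59A (-0.26 ± 0.05, SE, limma adjusted p = 0.000872). None of 6 genes of permease ubiquitination and trafficking was called, and *LDB19*, an arrestin gene, had the widest difference, -0.33 ± 0.14 (SE, limma adjusted p = 0.0706).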

How the data were processed

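Per the labels and the study's methods, each sample was labelled with Cy3 and hybridised against the pooled segregants in Cy5 on 70-mer arrays, and the authors normalized by print-tip loess and quantiles (R 2.9.2, limma) and averaged 2 technical hybridisations. The deposited expression values are log2 ratios, with array medians from -0.03 to 0.03. Scale and centring follow from the values and the methods, and the direction is likely but not stated in the table. The trait table, deposited in other units (rates in g CO2 per l and h, Nass in mg per l as its size implies, Fd in h), holds 1 value per segregant, a mean of duplicates except for nitrogen, which came from a single fermentation. Trait values of the parents were taken from the labels. Labels and methods differ in culture volume, labelling kit and the mating type of S288C, none of which enters a test. The number of arrays limits the precision.

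Rows were named through the reference gene table of assembly R64 (4125 of 4388 matched). Positions in the genome are left out, as no build is named for the array. By the methods, the arrays carried more oligonucleotides than these rows, and for part of its work the study left out transcripts of low signal. Whether that filter shaped the table is not stated. Shares of all genes are thus shares of the 4388 rows. The 53 missing values in 14 rows touch no member. The comparison of the parents used R 4.3.3 and limma 3.58.1 (lmFit, eBayes, Benjamini-Hochberg over all rows, adjusted p under 0.01) and an exact permutation test per member. Traits were related by Spearman's rho with a t approximation, and rho and Pearson's r of each member have 100000 permutations (Python 3.11.15, numpy 2.4.6, scipy 1.17.1, pandas 2.3.3). The joint fit used limma. All tests are two-sided. Scripts were tested on simulated data. Genes named are all members measured, list genes called for a trait or differing between the parents by over 0.5 (else the widest difference of a list), and the 2 genes most like each member. As alternatives, the methods' t-test and a block on the replicate number were run, as were other centring, ranks, shrinkage and adjustment, complete rows, each parental culture left out, Pearson's r, 1 spore per ascus, extreme segregants left out, label traits, limma slopes and Rmax in the joint fit. Leaving out each segregant was chosen after seeing the data. The members and lists were chosen with earlier results of these data known.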

Additional observations from a re-analysis of the deposited data

How the results depend on the processing

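No parental call changed direction. Against 1352 genes called between the parents, the Benjamini-Yekutieli adjustment left 860, and 5 members without *DUR3*. Leaving out a parental culture gave 1148 to 1367 genes and 5 or 6 members. With the replicate number as a block, 1202 genes and 5 members were called, *DUR3* being lost (adjusted p = 0.01005). Same-numbered cultures did not deviate together throughout (r from -0.29 to 0.39). For numbers 1 and 4 this r, 0.30 and 0.39, was above the highest r with another number, 0.02 and 0.17. For numbers 2, 3 and 5 it was below. These mixed values do not settle whether the numbers pair the samples. The relations to traits were less stable. Members called for Nass, 2 as reported, were 1 with Pearson's r, 0 with 1 spore per ascus (21 segregants), 0 without the 2 segregants of lowest Nass and 0 with Benjamini-Yekutieli adjustment. With limma slopes they were *PUT1* and *AGP1*, and *MEP2* had an adjusted p of 0.0505. For Rmax, also 2, they were 0 with 1 spore per ascus and 1 with Benjamini-Yekutieli adjustment. For R50, 1 as reported, they were 0 under either of these and 2 with limma slopes, and for R70 1 with limma slopes (*PUT1*, adjusted p = 0.0315). The 2 calls for Fd became 0 with 1 spore per ascus and 0 with Benjamini-Yekutieli adjustment. The 2 calls of the joint fit became 0 with Rmax as the second trait, 1 with 1 spore per ascus and 1 with traits as normal scores. Leaving out 1 segregant gave 1 to 2 calls for Nass, 1 to 2 for R50, and 0 to 3 in the joint fit. Against the range of the parental means, 138 of 210 segregant values lay outside. Signs were compared for the parental differences, the relations to Nass, Rmax, R50 and R70, the joint fit and the single values given for other traits. They turned only for values that were not called. These were *GAP1* and R50 with 1 spore per ascus (-0.0403) and *AGP1* and R70 without the extreme segregants (-0.0224). In the joint fit they were *DUR3* on Nass with 1 spore per ascus (0.00595) and *PUT2* on R70 with normal scores (0.028). Leaving out 1 segregant also turned *GAP1* and R70 (up to 0.00936), and again *AGP1* and R70 and the same 2 joint slopes. Fewer segregants remain with 1 spore per ascus, which lowers what the test can find, and other causes were not tested. The arrays give no depth, and 1 culture per segregant gives no replicate error there.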
